A study of Homo sapiens with 12 samples.

Results

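The genes described here encode the proteins of the mitochondrial ribosome. They were chosen by name, as the protein-coding genes whose symbol starts with MRPL or MRPS and a number, plus DAP3. This gave 79 of the 20036 genes in the table, of which 49 are MRPL genes, 29 are MRPS genes and 1 is DAP3. RNA was sequenced in 12 libraries of MV-4-11, a human line from acute myeloid leukaemia that has a mutated FLT3 receptor and a KMT2A fusion. The labels call the cells AML of bone marrow with a WT genotype. The libraries form 4 groups of 3, namely cells given the solvent DMSO, HPA-12, which inhibits the ceramide transporter CERT, crenolanib, which inhibits the kinase FLT3, and both compounds (the combination). The series gives 48 h for the treated groups, no time for DMSO, and no dose is given in the sources used here. The labels do not state separate cultures for the libraries of a group, so p-values measure how these libraries vary among themselves, which may be technical variation only.

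Mitochondria keep their own ribosome, which makes only the few proteins encoded by mitochondrial DNA, all of them subunits of the respiratory chain and the ATP synthase. Its ribosomal RNAs come from mitochondrial DNA, but every one of its proteins is encoded in the nucleus, made on cytosolic ribosomes and imported. Many of these proteins have no bacterial relative, and leukaemia cells are known to be sensitive to antibiotics that stop this ribosome. By role, 31 members belong to the large subunit and have a bacterial counterpart, 20 belong to the large subunit and are mitochondrial additions, 17 are small-subunit proteins with a bacterial counterpart and 10 are small-subunit additions. MRPS30 and MRPS18A are large-subunit proteins despite their names. MRPS36 carries a small-subunit name but is assigned to the 2-oxoglutarate dehydrogenase complex.

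Levels are FPKM, fragments scaled to gene length and library size, as the authors deposited them. The summed FPKM of the 79 genes was 1650, 1619 and 1676 in the DMSO libraries, 901, 916 and 946 with HPA-12, 957, 962 and 966 with crenolanib, and 803, 717 and 805 with the combination. With FPKM as deposited, all 9 treated libraries lay below all 3 DMSO libraries, and the combination libraries lay below those of either compound alone. The latter order depends on scaling. After the median-ratio scaling described below, the median member differences of the combination were 0.27 from crenolanib and 0.50 from HPA-12. Without that scaling they were -0.33 and -0.08. As a share of the DMSO mean the sum was 55.9% ± 1.40 (SD, n = 3) with HPA-12, 58.3% ± 0.271 under crenolanib and 47.0% ± 3.05 under the combination. The 87 cytosolic ribosomal protein genes, which serve the other ribosome of the cell, summed to 109.9% ± 3.04, 107.7% ± 1.53 and 182.4% ± 0.833. The 13 mitochondrially encoded genes, the templates of the mitochondrial ribosome, summed to 103.5% ± 3.41, 208.4% ± 1.10 and 604.9% ± 9.36. Of the 3 sets the mitochondrial ribosomal protein genes had the lowest sum relative to DMSO in each treated group, and with crenolanib and the combination the transcripts that their ribosome translates lay on the other side of DMSO.

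**Figure D1:**
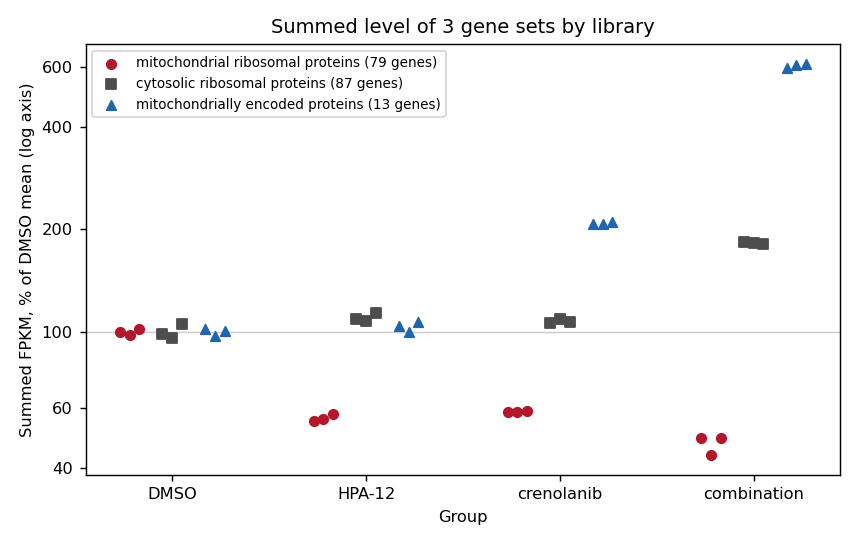
Summed FPKM of 3 gene sets in each of the 12 libraries, as a percentage of the DMSO mean of that set, on a log axis; each point is 1 library. The 79 mitochondrial ribosomal protein genes lie between 43.5% and 58.6% in the 9 treated libraries, while the 13 mitochondrially encoded genes reach 594.5% to 612.7% in the combination libraries.

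The libraries differed in ways that touch these values. The FPKM worth of 1 read, estimated from low values relative to the first DMSO library, was 1.00 to 1.18 in DMSO, 1.25 to 1.33 under HPA-12, 1.57 to 1.59 under crenolanib and 3.15 to 3.63 with the combination, so the combination libraries were the shallowest. They also listed 6 to 7 members at 0, against 1 to 2 in the other groups, and the median coefficient of variation of the 72 tested members was 38.1% there against 5.4% for DMSO, 7.9% for HPA-12 and 11.4% for crenolanib. Mitochondrially encoded genes took 61.6% to 62.6% of all FPKM in the combination libraries and 19.59% to 20.003% in DMSO, against 21.1% to 22.1% for HPA-12 and 35.9% to 36.2% for crenolanib. Without those genes in the total, the members still made up 0.791% to 0.804% of FPKM in DMSO, 0.470% to 0.491% under HPA-12, 0.507% to 0.510% under crenolanib and 0.383% to 0.430% under the combination. Since RNA was measured in bulk, fewer cells of a type and less RNA per cell cannot be told apart. Erythroid markers moved with the groups too. All 10 passed the test as higher than DMSO for crenolanib and the combination and 9 of 10 for HPA-12. Their summed FPKM, mostly HBB, was 74.9 to 82.9 in DMSO, 209.7 to 215.8 under HPA-12, 4243 to 4517 under crenolanib and 26333 to 26682 under the combination. The erythroid transcription factor GATA1 averaged 0.475 FPKM in DMSO and 44.3 in the combination. The 8 myeloid markers summed to 1292 to 1303, 689.5 to 717.8, 1073 to 1094 and 723.7 to 764.7 in the same order of groups. These sums hide members that went both ways, and they are mostly MPO and LYZ in every group but HPA-12. There MPO averaged 15.95 FPKM, against 390.6 in DMSO, and LYZ 86.9, against 398.9. The largest parts with HPA-12 were SPI1 (253.8) and FLT3 (155.5). With HPA-12 4 of the 8 fell and 3 rose, FLT3 among the latter (mean 94.6 to 155.5), and with crenolanib 6 fell and 2 rose. With the combination 6 fell, SPI1 going from 234.5 to 57.4 and CEBPA from 113.2 to 14.4. The 2 that rose there were MPO, from 390.6 to 428.6, and ITGAM, from 2.42 to 6.57. The 5 lymphoid markers stayed at a sum of 7.04 or less in every library, and of the 6 stromal and epithelial markers KRT19 was at 0 in all 12 libraries and EPCAM in 11. The sum of those 6 was 13.6 to 14.9 in DMSO, 61.3 to 64.6 under HPA-12, 25.9 to 29.2 under crenolanib and 6.61 to 18.98 under the combination. The 2 of them that were tested both rose with HPA-12, the endothelial and leukocyte adhesion gene PECAM1 from a mean of 12.2 to 59.1 and the keratin gene KRT8 from 2.16 to 4.01. The part of these differences in the results below was not tested.

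In DMSO the members spanned a wide range of levels per length. The median of their DMSO means was 16.3 FPKM, and 50 of the 79 lay at 10 FPKM or more. The highest means were MRPL41 (88.1 ± 8.27), MRPL57 (70.8 ± 3.54), MRPS12 (65.6 ± 3.16), MRPL37 (62.4 ± 4.38) and MRPL3 (56.1 ± 3.97, SD, n = 3 for each). The MRPL41 libraries lay above those of MRPL57, whereas each later neighbour in that order overlapped with the one before it. At the other end, 7 members lay under 1 FPKM in DMSO. MRPL53 was listed at 0 in all 12 libraries, MRPS24 averaged 0.197, MRPL2 0.254, MRPL46 0.366 and MRPS28 0.469, and MRPS18C and MRPL38 followed at 0.533 and 0.835. All 7 share at least 10% of their exon bases with another protein-coding gene in GENCODE release 29, from 11.3% for MRPL46 to 45.2% for MRPL53, and several of these partners are readthrough genes such as URGCP-MRPS24. In all, 21 members share that much, with a median DMSO level of 6.49 FPKM, against 19.4 FPKM for the other 58. How the authors' counting treated shared bases is not given in the sources used here, so the low levels of these 7 genes are uncertain. The same holds for MRPL12, the member with the largest shared part, 68.2%, at 2.30 ± 0.744 FPKM in DMSO. Other members named here and below also share at least 10%, among them MRPL33 (21.05%), MRPL9 (18.4%), MRPS12 (16.3%) and MRPL49 (12.2%). Their levels carry the same uncertainty. In addition 35 members have named pseudogenes, 77 in all, whose reads could have been assigned to them or taken from them.

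Differences were tested with limma on log2(FPKM + 1) across the 11149 genes that reached 1 FPKM in 3 or more libraries, with Benjamini-Hochberg adjusted p-values and a threshold of 0.05. The 7 members under 1 FPKM in DMSO did not pass that filter, which leaves 72, of which MRPS5 passed only through 1 group. MRPS5 had its highest mean in DMSO (1.22 FPKM) and is counted below among the members that fell with crenolanib and with the combination. Log2 differences understate the change of low genes on this scale. The 3 comparisons with DMSO share the same DMSO libraries, so their values are given side by side and are not independent of each other.

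HPA-12 lowered the transcripts of most mitochondrial ribosomal proteins. Of the 72 members tested, 65 fell and 0 rose against DMSO, where 34.6% of all genes tested fell and 43.2% rose. At an unadjusted limma p under 0.05 the count of higher members was also 0. In a fit of all 12 libraries with 1 spread per gene, 42 members were lower, against 23.0% of all genes. The median member difference was -0.68, against 0.09 for all genes. The class medians were -0.72 for large-subunit proteins with a bacterial counterpart (27 of 30 fell), -0.76 for large-subunit additions (16 of 17), -0.44 for small-subunit proteins with a bacterial counterpart (12 of 14) and -0.72 for small-subunit additions (9 of 10). Differences between classes were not tested.

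The members that fell most with HPA-12 included proteins of the catalytic core and the exit tunnel. MRPL24, whose bacterial counterpart sits at the exit of the peptide tunnel, was at 46.8, 48.9 and 51.0 FPKM in DMSO and at 9.59, 8.47 and 9.05 with HPA-12. The groups lay far apart, and the log2 difference was -2.32 (SE 0.059, adjusted p = 1.6e-11). MRPL3, which in bacteria reaches towards the peptidyl transferase centre, stood at 60.7, 54.1 and 53.5 FPKM in DMSO and 11.8, 12.3 and 11.8 with HPA-12. Again no library overlapped, with a log2 difference of -2.13 (SE 0.058, adjusted p = 2.5e-11). MRPS12, a protein of the decoding centre, was at 65.0, 62.8 and 69.0 in DMSO and 17.3, 16.2 and 16.5 with HPA-12, a log2 difference of -1.91 (SE 0.053, adjusted p = 2.7e-11). The next members by size were MRPL4, which lines the tunnel, at -1.79, MRPL17 at -1.73, the small-subunit addition MRPS26 at -1.67, the rRNA-binding head protein MRPS7 at -1.55 and MRPL14, which lies at the subunit interface, at -1.53. All 5 had adjusted p-values of 2.3e-08 or less. At the other end MRPS31 (0.19, adjusted p = 0.0677), MRPL10, which anchors the ribosomal stalk (0.17, adjusted p = 0.075), and MRPL33 (0.08, adjusted p = 0.44) had positive differences that missed the threshold. MRPL49 was at 18.02, 15.02 and 15.82 FPKM in DMSO and 16.5, 15.9 and 15.7 with HPA-12, so that its groups overlapped (log2 difference -0.02, adjusted p = 0.835). The range of responses within 1 particle ran from -2.32 to 0.19.

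Because most members moved together, their promoters were searched for letters that transcription factors of mitochondrial and growth genes are known to bind. The windows were RefSeq promoters on GRCh38.p14, 250 bases before to 50 bases after the annotated start, the first listed for each gene, and 70 of the 79 members matched by symbol. The letters CCGGAAG, read on either strand and bound by ETS factors such as GABPA, were in 29 of 70 windows (41.4%), against 10.7% of all 27305 promoters and 20.2% of the 9058 promoters of tested genes. AAGATGGC, the core bound by YY1, was in 20 windows (28.6%), against 3.03% and 5.61%. GCATGCGC, the NRF1 core, was in 6 (8.57%, against 3.27% and 5.66%), and CACGTG, the E-box bound by MYC and MAX, also in 6 (8.57%, against 7.43% and 10.4%). The ETS and YY1 strings can share their letters AAG, and 8 windows held both, with 0 matches that shared bases. A match is a description of these letters and not a shown binding site. The members with ETS letters had a median difference of -0.68 with HPA-12 (n = 26 tested) and those without -0.70 (n = 39). For YY1 letters the medians were -0.65 (n = 17) and -0.72 (n = 48) with HPA-12, -0.42 and -0.73 with crenolanib, and -0.74 and -1.12 with the combination. For the E-box they were -0.24 (n = 5, from -1.27 to -0.02) and -0.71 (n = 60) with HPA-12. With crenolanib the E-box medians were -0.55 and -0.73, and with the combination -0.98 and -1.10. For the NRF1 letters they were -0.85 (n = 5) and -0.68 (n = 60) with HPA-12, -0.88 and -0.72 with crenolanib, and -0.72 and -1.10 with the combination. These differences between groups of members were not tested.

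In the stretches below the ETS letters stand before members picked for unlike responses to HPA-12, so that contrast follows from the choice. Each runs 5′ to 3′ on the strand of the gene and holds only bases upstream of the RefSeq start that lie outside every exon of GENCODE release 29. They were chosen after the differences were known, 2 from members lowered strongly by HPA-12, 2 from members with little change, and 1 each for the NRF1 and YY1 letters. Capitals mark the motif letters. MRPL3 is at chr3:131502984-131503048 (minus strand), MRPS34 at chr16:1773156-1773206 (minus), MRPS31 at chr13:40771191-40771267 (minus), MRPS10 at chr6:42217866-42217928 (minus), MRPL17 at chr11:6683402-6683466 (minus) and MRPL52 at chr14:22829821-22829875 (plus).
MRPL3: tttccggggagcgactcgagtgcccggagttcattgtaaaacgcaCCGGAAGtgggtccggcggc
MRPS34: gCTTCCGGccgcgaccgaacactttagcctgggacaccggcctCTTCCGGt
MRPS31: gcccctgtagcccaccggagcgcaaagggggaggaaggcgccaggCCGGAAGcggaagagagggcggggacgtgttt
MRPS10: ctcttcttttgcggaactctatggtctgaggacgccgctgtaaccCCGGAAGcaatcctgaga
MRPL17: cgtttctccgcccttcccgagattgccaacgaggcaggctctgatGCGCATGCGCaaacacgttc
MRPL52: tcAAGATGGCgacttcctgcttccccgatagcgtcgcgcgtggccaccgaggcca
MRPL3 and MRPS31 carry CCGGAAG at the same distance, 32 bases before the start, and their HPA-12 differences were -2.13 and 0.19. MRPS34, which has the letters on the opposite strand at 71 and 29 bases before the start, fell by 1.52, and MRPS10, with 1 match at 22 bases, fell by 0.14 (adjusted p = 0.04). In MRPL17, which fell by 1.73, the NRF1 letters overlap themselves on both strands. MRPL52 fell by 0.85. The stretches leave out further matches in the full windows, 1 ETS match in MRPS34, 1 NRF1 match in MRPL17, 1 YY1 match in MRPS10, and 1 match each for ETS, NRF1 and YY1 in MRPL52.

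**Figure D2:**
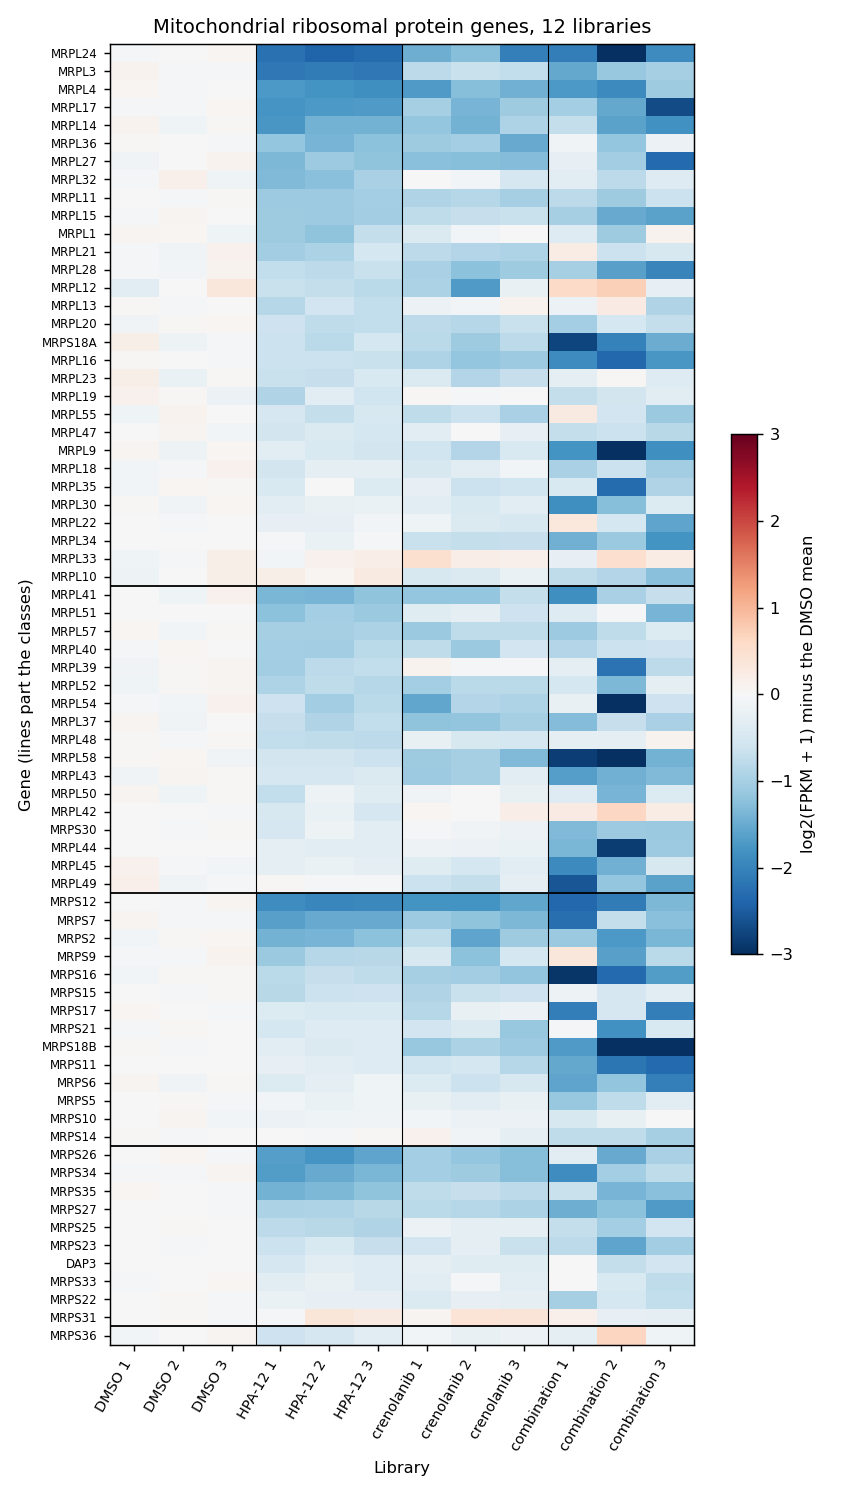
Difference of log2(FPKM + 1) from the DMSO mean for the 72 tested members (rows, ordered by class and by the HPA-12 difference) in the 12 libraries (columns); the colour scale ends at -3 and 3. MRPL3 is darker with HPA-12 (-2.13) than with the combination (-1.22), MRPL58 and MRPS18B are darkest with the combination, and MRPL24 is equally dark in both (-2.32).

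Crenolanib left the summed level at a similar share of DMSO. Of the 72 members, 56 fell and 2 rose, while 39.4% of all genes fell and 36.1% rose. In the fit of all 12 libraries 39 members were lower and 0 higher, against 3220 and 3054 of all 11149 genes. The median was -0.70, against -0.04 for all genes. By class, 24 of 30 large-subunit proteins with a bacterial counterpart fell (median -0.72), 13 of 17 large-subunit additions (-0.55), 11 of 14 small-subunit proteins with a counterpart (-0.73) and 8 of 10 small-subunit additions (-0.43). MRPS12 changed most, to 18.4, 18.2 and 21.4 FPKM, all far below the DMSO libraries (log2 difference -1.71, SE 0.070, adjusted p = 6.3e-08). MRPL24 followed with 17.0, 19.7 and 11.0 FPKM, lower than DMSO in every library but with more spread than under HPA-12 (-1.60, SE 0.167, adjusted p = 2.1e-05). MRPL4 fell by 1.48, MRPL27, whose bacterial counterpart reaches the peptidyl transferase centre, by 1.27, MRPS7 by 1.22, the small zinc-binding protein MRPL36 by 1.19, MRPL14 by 1.17 and MRPL17 by 1.15. MRPL3, so strongly lowered by HPA-12, was at 32.3, 34.7 and 33.2 FPKM with crenolanib, between the HPA-12 and the DMSO libraries (-0.73, adjusted p = 4.1e-06). The 2 members that rose were MRPS31 and MRPL33. MRPS31 was at 9.73, 9.84 and 9.18 FPKM in DMSO and 10.1, 13.1 and 12.9 with crenolanib, without overlap (0.29, SE 0.097, adjusted p = 0.0206). MRPL33 was at 16.7, 17.8 and 21.0 in DMSO and 26.0, 21.4 and 20.5 with crenolanib, and its groups overlapped (0.28, SE 0.105, adjusted p = 0.0362). Both calls were lost in the fit of all 12 libraries (adjusted p = 0.111 and 0.189) and without a filter on low values (0.0512 and 0.0957). MRPS31 was also lost without crenolanib library 2, crenolanib library 3 or DMSO library 3 (adjusted p up to 0.0728), and MRPL33 without crenolanib library 1, DMSO library 1 or DMSO library 2 (up to 0.133).

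**Figure D3:**
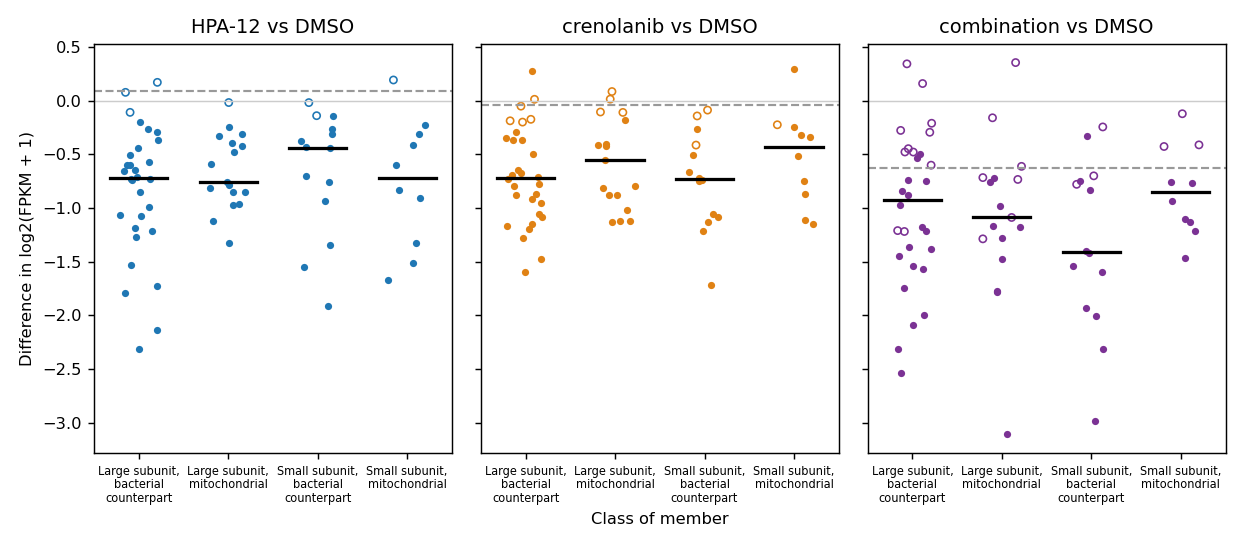
Difference in log2(FPKM + 1) from DMSO for the tested members of 4 classes under each treatment; filled points passed the adjusted p threshold of 0.05, open points did not, the black bar is the class median and the dashed line the median of all genes tested. Members lie below the dashed line in most cases with HPA-12 and crenolanib, while with the combination the dashed line itself is at -0.62.

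With the combination most tested members fell against DMSO, as did many other genes. Of the 72 members, 47 fell and 0 rose against DMSO, where 49.6% of all genes fell and 12.3% rose. At an unadjusted limma p under 0.05 that count of higher members stayed 0, and the fit of all 12 libraries called 1, against 14.8% of all genes. The median was -0.97, against -0.62 for all genes. The all-gene median depends on scaling. When libraries were rescaled by the median ratio to a reference, the all-gene median was -0.12, the member median -0.42, and 19 members fell and 4 rose, where 25.5% of all genes fell and 21.2% rose. The share of members that fell was then close to that of all genes. Over all genes the share of calls that were higher went from 19.9% to 45.4%. Relative to all genes the member median was therefore lower by 0.35 with FPKM as deposited and by 0.30 after rescaling, less than with HPA-12 (0.77) or crenolanib (0.67), without a test of that difference. That order turned without a filter on low values, where the same quantity was -0.74 for the combination, -0.62 for HPA-12 and -0.68 for crenolanib. By class, 19 of 30, 10 of 17, 11 of 14 and 7 of 10 members fell, in the order used above, with medians of -0.92, -1.09, -1.41 and -0.85.

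MRPL58 is a peptidyl-tRNA hydrolase built into the large subunit that frees chains from stalled ribosomes. It was at 34.4, 34.8 and 31.2 FPKM in DMSO, 22.4, 22.3 and 21.0 with HPA-12, 15.3, 16.3 and 12.8 with crenolanib, and 3.90, 0 (listed) and 11.97 with the combination. The 4 groups did not overlap and stood in that order. The combination difference from DMSO was -3.11 (SE 0.844, adjusted p = 0.0168), and this call was lost after median-ratio scaling (adjusted p = 0.0662), with a pseudocount of 0.1 (0.0675), without a filter (0.0685) and without DMSO library 1 or 2 (0.0554 and 0.0547). MRPS18B, a small-subunit protein and 1 of 3 human relatives of bacterial S18, was at 39.98, 37.82 and 38.62 in DMSO, 30.9, 28.6 and 29.6 with HPA-12, 17.1, 19.7 and 17.7 with crenolanib, and 11.3, 2.25 and 2.23 with the combination. Its groups did not overlap either, and its combination difference was -2.98 (SE 0.507, adjusted p = 0.00233). MRPS16, a small-subunit protein whose loss causes a respiratory chain deficiency, stood at 36.6, 39.7 and 39.8 in DMSO and 4.23, 6.85 and 11.4 with the combination (-2.32, SE 0.294, adjusted p = 0.00064). MRPL9 was at 15.96, 13.47 and 15.75 in DMSO and 3.66, 0 (listed) and 3.50 with the combination (-2.54, adjusted p = 0.00853, lost with a pseudocount of 0.1 at 0.0581). MRPL24 reached -2.32, MRPS18A -2.09, MRPS11 -2.01 and MRPL16 -2.00, all with adjusted p-values of 0.00135 or less. MRPS12 lay at 12.1, 14.5 and 25.2 FPKM, about where it lay with either compound alone (-1.93, adjusted p = 0.00066). With FPKM as deposited, 34 of the tested members had their lowest group mean in the combination, 26 with HPA-12, 11 with crenolanib and 1 in DMSO.

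**Figure D4:**
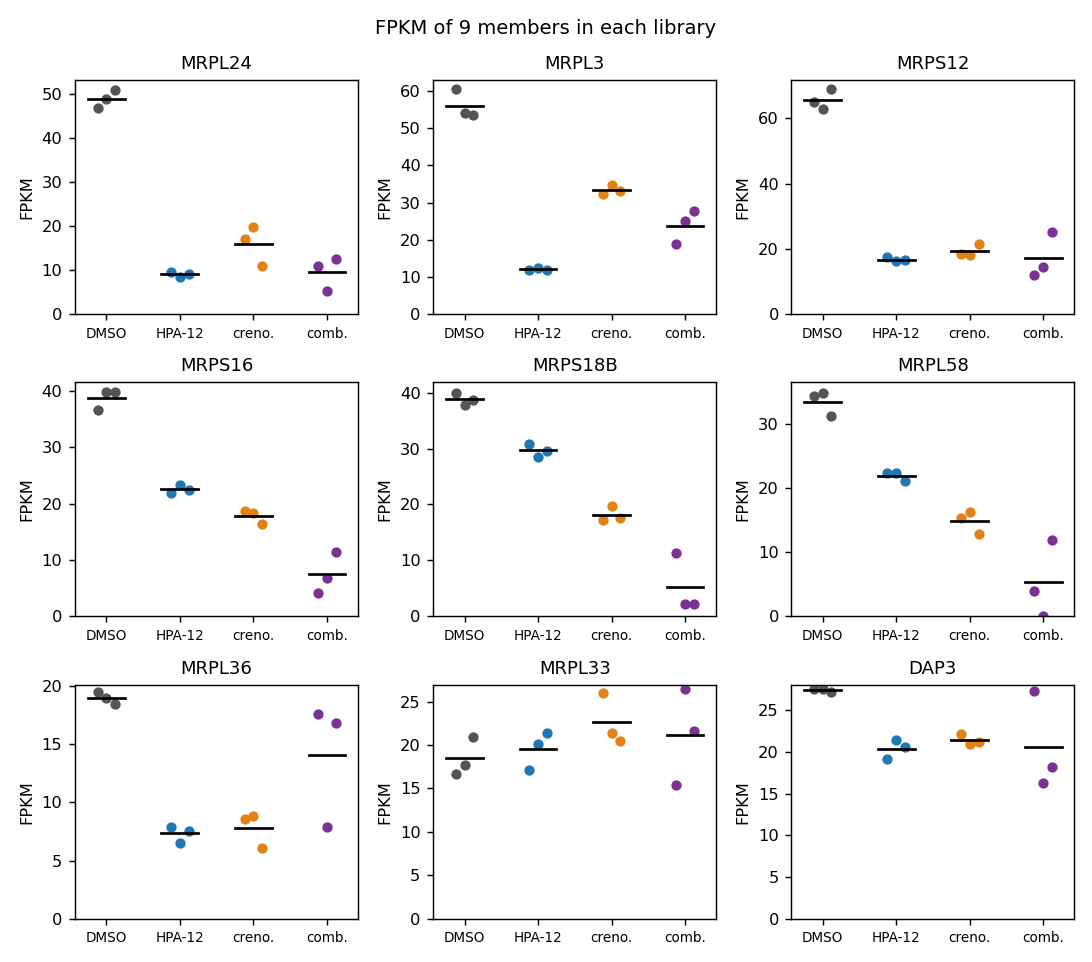
FPKM of 9 members in each library (points) with the group mean (bar), on linear axes from 0. MRPL24, MRPL3 and MRPS12 had their lowest mean with HPA-12, MRPS16, MRPS18B and MRPL58 stepped down to the combination, and MRPL33 and DAP3 overlapped between the combination and DMSO.

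The 2 compounds were compared with each other directly. Between crenolanib and HPA-12, 11 members were lower and 23 higher with crenolanib, with 35.1% of all genes lower and 29.0% higher, and a median of 0.07 against -0.05 for all genes. MRPL3 differed most (1.41, SE 0.062, adjusted p = 5.7e-08), followed by MRPL32, which is matured by a mitochondrial protease before assembly (0.99), and MRPL39 (0.87). MRPL32 was at 2.28, 2.44 and 3.21 FPKM with HPA-12 and 7.22, 6.76 and 4.80 with crenolanib, around its DMSO values of 7.06, 8.21 and 6.54. MRPL39 was at 6.51, 7.89 and 8.22 with HPA-12 and 15.6, 14.1 and 14.0 with crenolanib. In these 3 genes every crenolanib library lay above every HPA-12 library. In the other direction MRPS18B was lower with crenolanib by 0.68 (adjusted p = 1.9e-05), MRPL34 by 0.59, MRPL58 by 0.54, MRPL10 by 0.54 and MRPL49 by 0.54. MRPL34 was at 46.2, 41.4 and 45.6 with HPA-12 and 29.8, 28.7 and 29.1 with crenolanib, without overlap. MRPL10 was at 20.6, 18.9 and 22.2 with HPA-12 and 12.7, 13.1 and 15.7 with crenolanib. In the fit of all 12 libraries, which takes 1 spread per gene for every group, 3 members were lower and 12 higher, against 21.6% and 19.5% of all genes, and the calls of MRPS18B, MRPL58, MRPL49 and MRPL39 were lost (adjusted p = 0.181, 0.529, 0.133 and 0.0738).

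Adding HPA-12 to crenolanib lowered 18 members and raised 1, against 46.9% and 6.74% of all genes, with a member median of -0.33 and an all-gene median of -0.63. After median-ratio scaling 0 members were lower and 14 higher (median 0.27 against -0.13), against 12.8% and 13.5% of all genes, and the share of higher calls over all genes went from 12.6% to 51.4%, so the direction of the members in this comparison depends on the scaling. The lowered members led with MRPS18B (-1.92, SE 0.490, adjusted p = 0.0137), MRPL9 (-1.89, adjusted p = 0.0258), MRPL44, an RNase III-like protein of the large subunit (-1.59, adjusted p = 0.015), MRPS11 (-1.35, adjusted p = 0.00383) and MRPS16 (-1.24, adjusted p = 0.0101). None of these 5 calls held after median-ratio scaling (adjusted p = 0.0595 to 0.188), although the 5 differences stayed negative. The 1 raised member was MRPL12 (1.30, adjusted p = 0.0359), which was lost without crenolanib library 1 or 2 or combination library 1 or 2 (0.0874 to 0.116), with a pseudocount of 0.1 (0.0855) and without a filter (0.0847). Leaving out crenolanib library 1, 2 or 3 reduced the 18 lowered members to 10, 9 and 9, and MRPL9 and MRPL44 were then not called (adjusted p = 0.0505 to 0.0848), nor was MRPS18B without crenolanib library 2 (0.0533). Adding crenolanib to HPA-12 lowered 20 members and raised 7, against 50.2% and 11.8% of all genes, with medians of -0.08 and -0.64. After median-ratio scaling 6 were lower and 26 higher (median 0.50), against 24.0% and 21.4% of all genes, and the share of higher calls went from 19.0% to 47.1%. MRPS18B (-2.60), MRPL58 (-2.52), MRPL9 (-2.10), MRPL49 (-1.76) and MRPS11 (-1.70) were lowest, and MRPL12 (1.07), MRPL3 (0.92) and MRPL36 (0.79) highest, each with an adjusted p of 0.0482 or less. Of these 8, MRPL58 and MRPL9 were lost after median-ratio scaling (adjusted p = 0.127 and 0.0953). Leaving out 1 library ended the call of MRPL36 (any HPA-12 library, or combination library 1 or 3, adjusted p = 0.0979 to 0.141), of MRPL58 (any HPA-12 library or combination library 1, 0.066 to 0.0875), of MRPL9 (HPA-12 library 1 or 2, 0.0565 and 0.0521) and of MRPL12 (HPA-12 library 3, 0.0538). The 20 lowered members became 13, 12 and 13 without HPA-12 library 1, 2 or 3, and the 7 raised members 2, 3 and 2, or 11 without combination library 2.

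**Figure D5:**
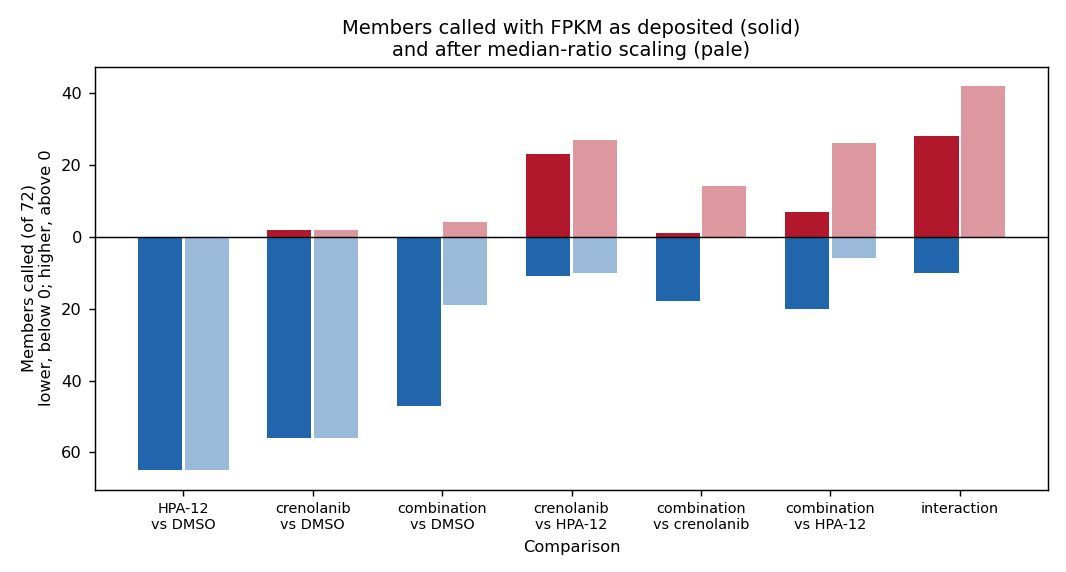
Number of the 72 tested members called lower (below 0) and higher (above 0) in each comparison, with FPKM as deposited (solid) and after median-ratio scaling (pale). The counts with either compound alone against DMSO are the same under both scalings (65 and 0, 56 and 2), and those of comparisons with the combination shift upwards.

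The interaction asks whether HPA-12 changed a gene differently in the presence of crenolanib, and is the combination's difference from crenolanib minus the difference of HPA-12 from DMSO. It was positive, a smaller fall or larger rise in the presence of crenolanib, in 28 of 72 members and negative in 10, with 15.4% and 50.0% over all genes. The median was 0.35 for members and -0.65 for all genes. After median-ratio scaling 42 members were positive and 0 negative (median 1.03 against -0.13), against 25.4% and 29.5% of all genes, and the share of positive calls over all genes went from 23.6% to 46.3%. Members strongly lowered by HPA-12 alone were among the positive ones. The HPA-12 difference from DMSO is subtracted in the interaction, so this link is partly built into the measure. MRPS26 was at 48.0, 50.6 and 46.3 FPKM in DMSO, 14.7, 13.4 and 15.5 with HPA-12, 23.4, 21.1 and 19.4 under crenolanib and 38.25, 16.31 and 23.96 under the combination. Its combination libraries overlapped those of crenolanib and lay above those of HPA-12, and its interaction was 1.88 (SE 0.310, adjusted p = 0.00024). MRPL36 was at 19.5, 19.0 and 18.5 in DMSO, 7.90, 6.54 and 7.57 with HPA-12, 8.62, 8.84 and 6.06 under crenolanib and 17.6, 7.92 and 16.8 under the combination, an interaction of 1.98 (SE 0.339, adjusted p = 0.00031). Of its combination libraries 2 lay near DMSO and 1 near the single compounds. MRPS12 had an interaction of 1.70 (adjusted p = 0.00022). MRPL12 had the largest, 2.03 (SE 0.488, adjusted p = 0.00325), from low levels described below. The negative calls with the largest size were MRPS18B (-1.55, adjusted p = 0.026), MRPL44 (-1.28, adjusted p = 0.0292), MRPL49 (-1.21, adjusted p = 0.0151), MRPS11 (-1.03, adjusted p = 0.00362) and MRPS6 (-0.83). MRPL44 was at 40.2, 41.4 and 40.7 in DMSO, 32.9, 32.7 and 32.6 with HPA-12, 36.5, 35.7 and 35.3 under crenolanib and 15.1, 4.79 and 18.7 under the combination, so only the combination libraries stood far off. After median-ratio scaling none of these 5 calls held (adjusted p = 0.144 to 0.396), while their values stayed negative. MRPS18B was lost without HPA-12 library 1, crenolanib library 2, combination library 2 or combination library 3 (adjusted p = 0.0518 to 0.0576), and MRPL44 without any 1 of the DMSO, HPA-12 or crenolanib libraries (0.0502 to 0.0546) and without a filter (0.0546). Without combination library 3, 17 members were negative.

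A few members are known for roles beyond the ribosome or for their unusual place in it. DAP3, a GTP-binding protein of the small subunit first described as a mediator of cell death, was at 27.5, 27.5 and 27.1 FPKM in DMSO, 19.1, 21.5 and 20.6 with HPA-12, 22.1, 21.0 and 21.2 under crenolanib and 27.3, 16.3 and 18.2 under the combination. It fell with HPA-12 (-0.41, adjusted p = 2.4e-05) and with crenolanib (-0.34, adjusted p = 0.0002, or 0.0657 in the fit of all 12 libraries), and its combination difference was -0.43 (adjusted p = 0.0887) with 1 library inside the DMSO range. Without combination library 1 it was -0.64 (adjusted p = 0.00173). MRPS30 was at 15.3, 14.8 and 15.6 in DMSO, 10.4, 13.5 and 11.9 with HPA-12, 14.9, 14.0 and 13.2 with crenolanib, and 5.48, 6.64 and 6.47 with the combination. It fell by 0.33 with HPA-12 (adjusted p = 0.00257) and by 1.17 with the combination (adjusted p = 0.00026), its crenolanib difference was -0.11 (adjusted p = 0.156), and its interaction was -0.73 (adjusted p = 0.00137, but -0.10 and 0.596 after median-ratio scaling). MRPL12, the counterpart of the bacterial stalk protein L7/L12 and a known partner of the mitochondrial RNA polymerase, was at 1.61, 2.19 and 3.09 in DMSO, 1.04, 0.986 and 0.853 with HPA-12, 0.689, 0 (listed) and 1.77 under crenolanib and 3.83, 4.30 and 1.72 under the combination. It fell with HPA-12 (-0.73, adjusted p = 0.0004, or 0.0995 in the fit of all 12 libraries) and with crenolanib (-0.95, adjusted p = 0.0237), and its combination difference was 0.34 (adjusted p = 0.366). The crenolanib call was lost without crenolanib library 1 or 2 or DMSO library 2 or 3 (adjusted p = 0.0521 to 0.0871), with a pseudocount of 0.1 (0.0543) and without a filter (0.0827). Of its exon bases 68.2% are shared with a readthrough gene, so these levels may not be those of MRPL12 alone.

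The 3 human relatives of bacterial S18 differed in level, and the 2 that were tested both fell in all 3 comparisons with DMSO. MRPS18B had differences of -0.38, -1.06 and -2.98 for HPA-12, crenolanib and the combination, and the first of these was lost in the fit of all 12 libraries (adjusted p = 0.445). MRPS18A, the large-subunit relative, was at 19.1, 15.2 and 16.5 FPKM in DMSO, 10.46, 9.28 and 11.47 with HPA-12, 9.26, 7.57 and 9.41 under crenolanib and 1.64, 3.42 and 5.34 under the combination, with differences of -0.65, -0.88 and -2.09. The combination libraries lay below all others. Of its exon bases 47.0% are shared with the gene RSPH9 on the opposite strand, so these levels may not be those of MRPS18A alone. MRPS18C stayed under 1 FPKM in every library, between 0.204 and 0.906 in the 3 other groups and at 0, 0.0405 and 0 with the combination, and was not tested. MRPS36, the member assigned to 2-oxoglutarate dehydrogenase, was at 7.26, 7.89 and 8.32 in DMSO, 4.75, 5.27 and 5.97 with HPA-12, 7.27, 6.53 and 6.76 under crenolanib and 6.27, 12.8 and 7.11 under the combination. It fell with HPA-12 (-0.48, adjusted p = 0.00024, or 0.062 in the fit of all 12 libraries), and its differences with crenolanib (-0.17, adjusted p = 0.0812) and the combination (0.08, adjusted p = 0.791) missed the threshold. MRPS10, a small-subunit protein with a bacterial counterpart, was at 25.6, 26.6 and 23.6 in DMSO and 17.9, 21.3 and 24.8 with the combination, which overlapped (-0.24, adjusted p = 0.165). After median-ratio scaling that difference was called in the other direction (0.425, adjusted p = 0.0471). MRPL42 had the highest combination difference among the 72, 0.36 (adjusted p = 0.111), with 2.77, 2.76 and 2.63 FPKM in DMSO and 3.40, 4.69 and 3.32 with the combination. Its groups did not overlap, and after median-ratio scaling MRPL42 was called higher (0.908, adjusted p = 0.00691).

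Other genes of the pathway were read from lists of related genes, against 34.6%, 39.4% and 49.6% of all genes that fell and 43.2%, 36.1% and 12.3% that rose with HPA-12, crenolanib and the combination. The 4 mitoribosome subunits without an MRP name (AURKAIP1, CHCHD1, PTCD3 and GADD45GIP1) fell in all 3 comparisons with DMSO, with medians of -0.73, -0.62 and -0.95. GADD45GIP1, a large-subunit protein, averaged 59.8 FPKM in DMSO, 15.5 under HPA-12, 22.4 under crenolanib and 28.0 under the combination. Of 25 tested genes for mitoribosome assembly and rRNA modification, 18, 21 and 22 fell and 4, 2 and 0 rose with HPA-12, crenolanib and the combination (medians -0.80, -0.78 and -1.18). They include C1QBP, a matrix protein needed for mitochondrial translation, at -2.12, -1.46 and -1.91, and the helicase DHX30 at -1.01, -1.26 and -1.92. Of 20 translation factors 14, 11 and 13 fell and 3, 3 and 0 rose, with the elongation factor TUFM at -1.16, -1.27 and -1.62. Of 16 genes listed under mitochondrial transcription 10, 9 and 13 fell and 2, 4 and 0 rose, with the RNA polymerase POLRMT at -1.22, -1.23 and -2.40. That list also holds TWNK, the helicase of mitochondrial DNA replication, at -2.65, -1.78 and -2.57. Of 26 genes of mitochondrial protein import 24, 19 and 18 fell and 1, 1 and 2 rose, with the pore protein TOMM40 at -2.78, -1.67 and -2.86. The 13 mitochondrially encoded genes differed from these. With HPA-12 4 fell and 4 rose (median 0.02), and all 13 rose under crenolanib (1.16) and the combination (2.64).

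Of the 11 tested regulators of mitochondrial biogenesis, 6, 7 and 8 fell and 4, 3 and 1 rose in the same order, and the counts that rose were near the shares of all genes. MYC, which activates many ribosome genes, averaged 157.6 FPKM in DMSO, 6.88 under HPA-12, 34.8 under crenolanib and 17.8 under the combination, differences of -4.33, -2.15 and -3.08, each with an adjusted p of 4e-07 or less. GABPA, which binds the ETS letters, averaged 3.09, 5.32, 11.99 and 3.75 FPKM, and rose with HPA-12 (0.60) and crenolanib (1.67). YY1 averaged 21.1, 24.98, 26.5 and 10.2, with log2 differences of 0.23, 0.31 and -0.99 that all passed. The part of these factors in the members' differences was not tested. As to gene length, the Spearman correlation between exon length and log2 difference across the 72 members was 0.25 with HPA-12, 0.28 under crenolanib and 0.12 under the combination, and 0.17, 0.16 and 0.03 across 11136 genes of known length. These are correlations across genes of the same libraries, which are not independent replicates. The 36 shorter members had medians of -0.77, -0.77 and -1.14 and the 36 longer ones -0.60, -0.51 and -0.84, so both length classes lay below 0 in each comparison.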

How the data were processed

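The table holds FPKM computed by the authors and deposited with 1 column for each of the 12 libraries, per the file headers. No aligner, counter, genome build or annotation is given in the sources used here. Counts were not used. All 12 value columns were matched to libraries by name, with 0 left over. Symbols were found for 20011 of 20036 Ensembl IDs, and lengths and overlaps came from GENCODE release 29. Log2(FPKM + 1) of genes that reached 1 FPKM in 3 or more libraries was fitted with limma 3.58.1 (R 4.3.3, statmod 1.5.0) with a mean-variance trend and robust empirical Bayes, on the 6 libraries of the 2 groups compared, or on all 12 for the interaction. P-values are two-sided and Benjamini-Hochberg adjusted over 11149 genes. The fit of 2 groups was chosen after earlier simulations from these data; on simulated data of 11149 genes with the real spreads, the 12-library fit called 2.37% to 3.18% of unchanged genes in the comparisons with the combination, against 0.0731% to 0.183% for the fit of 2 groups. The latter recovered 96, 90 and 44 of 100 changes of 1 log2 unit for HPA-12, crenolanib and the combination against DMSO, so many changes of that size in the combination were missed. The interaction, fitted on all 12 libraries, called 0.438% of unchanged genes and recovered 45 of 100 such changes. Named members are the 8 most lowered and 5 most raised among those called against DMSO, 5 and 3 elsewhere, the 5 highest and 5 lowest in DMSO, and MRPL12, MRPL58, MRPS12, DAP3, MRPS30, MRPS36 and the MRPS18 genes; of other lists, up to 4 genes with the smallest p. MRPL42, MRPL52, MRPS10, MRPS34, MRPL38 and MRPS5, and members given in a comparison where the rule does not name them, were chosen after their values were seen. The members and lists were chosen with earlier results of these data known. Alternatives were other scalings, pseudocount and filter, the 12-library fit, a replicate block and leaving out each library.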

Additional observations from a re-analysis of the deposited data

Results flagged for a closer look

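The effect of HPA-12 differed with and without crenolanib, by the limma interaction test, for 11 of the 14 members named by rule in this comparison. That rule takes the largest called differences, so the count says nothing of the members as a whole, of which 38 of 72 were called, against 65.4% of all genes. The interaction was positive in log2 units for MRPL12 (2.03), MRPL36 (1.98), MRPS26 (1.88), MRPS12 (1.70) and MRPS36 (0.73). It was negative for MRPS18B (-1.55), MRPL44 (-1.28), MRPL49 (-1.21), MRPS11 (-1.03), MRPS6 (-0.83) and MRPS30 (-0.73). After median-ratio scaling the 6 negative calls were lost (adjusted p from 0.144 to 0.596). MRPS36 missed the threshold when the 13 mitochondrially encoded genes were left out of the total (adjusted p = 0.0627), without a filter on low values (0.0588), and without any 1 of the DMSO or crenolanib libraries or HPA-12 library 1 or 2 (0.0508 to 0.0838). Groups of 3 libraries are too small for a test of single outlying libraries.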

How the results depend on the processing

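The median of members less that of all genes kept its sign under every alternative for each of the 7 comparisons, except that without a filter it became -0.084 for combination vs crenolanib. It moved by more than the spread between libraries with a pseudocount of 0.1 (HPA-12 vs DMSO -0.86, interaction 1.34), without a filter (HPA-12 vs DMSO -0.62, combination vs DMSO -0.74, combination vs HPA-12 0.115 and interaction 0.54) and with a minimum mean of 5 FPKM (interaction 1.36). Median-ratio scaling changed the counts lower and higher to 19 and 4 for combination vs DMSO, 0 and 14 for combination vs crenolanib, 6 and 26 for combination vs HPA-12, and the negative interactions to 0. The 12-library fit gave 42 lower for HPA-12 vs DMSO, 39 lower and 0 higher for crenolanib vs DMSO, and 55 lower and 1 higher for combination vs DMSO. It gave 3 lower and 12 higher for crenolanib vs HPA-12, 32 lower and 5 higher for combination vs crenolanib, and 11 higher for combination vs HPA-12. Without the mitochondrially encoded genes in the total, 2 members were higher for HPA-12 vs DMSO and 2 for combination vs crenolanib. The 1 higher member of combination vs crenolanib was lost with a pseudocount of 0.1 and without a filter (0 in both), and without a filter 1 was higher for crenolanib vs DMSO. The causes were not tested.

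Same-numbered libraries deviated together by correlations of -0.03 to 0.07, and libraries with unlike numbers by -0.096 to 0.064. The same-numbered values lay above the others for HPA-12 with crenolanib (0.017 to 0.038 against -0.034 to -0.003). They also did for DMSO with the combination (0.009 to 0.027 against -0.02 to 0.006), and overlapped them in the other pairs of groups. With 3 libraries per group, such small values cannot settle whether the numbers pair the libraries. The replicate block gave 1 higher member in each single compound's comparison with DMSO, ended the call of MRPL33 with crenolanib (adjusted p = 0.0531), added those of MRPL58 in combination vs crenolanib (0.0345) and MRPS18A in crenolanib vs HPA-12 (0.0414), and moved no other count by over 1.5 times. Leaving out 1 library gave, for members lower and higher, 61 to 63 and 0 to 1 for HPA-12 vs DMSO, 52 to 56 and 1 for crenolanib vs DMSO, 37 to 54 and 0 for combination vs DMSO, 10 to 14 and 18 to 25 for crenolanib vs HPA-12, 9 to 24 and 0 to 4 for combination vs crenolanib, 12 to 21 and 2 to 11 for combination vs HPA-12, and 7 to 17 and 25 to 33 for the interaction. Median-ratio scaling turned the sign of differences called under 1 of the scalings for 4 members in combination vs DMSO, 5 in combination vs crenolanib, 5 in combination vs HPA-12 and 4 in the interaction, and for 0 in the other 3 comparisons. Of these, the 1 named by rule in its comparison is DAP3 in combination vs HPA-12 (0.68 after median-ratio scaling, adjusted p = 0.026, against -0.02 as deposited). Depth limits the combination libraries most, where 1 read is worth over 3 times its value in the first DMSO library and changes of 1 log2 unit were often missed.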
